A study of Homo sapiens with 2 samples.

Results

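Proteins that leave the cell, sit in its membranes or fill its granules enter the endoplasmic reticulum (ER) first. The signal recognition particle (SRP) finds the signal peptide of a growing protein and brings the ribosome to the SEC61 channel, where signal peptidase cuts the peptide off and the oligosaccharyltransferase attaches sugar chains. COPII coats then carry cargo from the ER towards the Golgi, COPI coats carry escaped ER proteins back, and the p24 (TMED) and KDEL receptors choose part of the cargo. Promyelocytes are known for a large output of granule proteins, which take this route.

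The genes described here encode this machinery. They were taken by gene symbol, not by any measured value, and 61 of the 11619 genes in the expression tables matched. Both tables list all 61, and the coat gene COPZ2, which the symbols would also have taken, is not among the listed genes. The cells were NB4, a human acute promyelocytic leukemia cell line with the PML/RARα fusion. They carried a lentiviral shRNA against the long non-coding RNA CRNDE (sh-CRNDE) or a non-targeting control shRNA (sh-Control), and RNA was taken on day 3 after infection. The vector marks infected cells with the fluorescent protein ZsGreen1. Each group has 1 library, so the differences below come without p-values and without a check against replicates. The sources name more than 1 shRNA against CRNDE and do not state which of them the sequenced cells held.

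The values are FPKM, fragments scaled to transcript length and to the number of mapped fragments, which allow levels of different genes to be set side by side within a library. A change is log2(FPKM + 1) in sh-CRNDE less the same with sh-Control, and it is named past the threshold, or higher or lower, at 1.5-fold (0.585 on the log2 scale). The added 1 understates the change of low genes. The targeted CRNDE was at 5.92 FPKM with sh-Control and 1.85 FPKM with sh-CRNDE, a change of -1.28. FPKM values hold no read counts, so the depth is unknown and no counting interval can be given. The sum over all genes was 141217 FPKM with sh-Control and 170373 FPKM with sh-CRNDE, of which the mitochondrial rRNA gene MT-RNR2 took 0% and 16.2%. Of the promyelocyte markers, 7 of 9 are listed, MPO first with 1135 and 738 FPKM, and 5 of the 7 were lower with sh-CRNDE, against 8.83% of all listed genes. CEBPE, a transcription factor of the granulocyte lineage, was higher, at 0.748 and 8.75 FPKM (2.48). The 7 markers summed to 2145 FPKM with sh-Control and 969 FPKM with sh-CRNDE. Of the T lymphocyte, B lymphocyte, erythroid, monocyte and epithelial kidney markers, 1 of 5, 3 of 5, 0 of 5, 2 of 4 and 1 of 4 are listed. The sums of these lists with sh-Control and sh-CRNDE were 0.991 and 1.16 FPKM for T lymphocytes, 3.98 and 4.33 FPKM for B lymphocytes, 23.0 and 32.6 FPKM for monocytes, with LYZ as the main gene, and 4.82 and 4.49 FPKM for the kidney list. The part of these markers in the results below was not tested. In bulk RNA, fewer cells of a type and less RNA per cell cannot be told apart.

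The summed and the median level of the secretory machinery were alike in both libraries. The median size of the change, in either direction, was 0.234 for the members and 0.247 for all listed genes. The 61 genes summed to 1501 FPKM with sh-Control and 1545 FPKM with sh-CRNDE, and their median level was 13.4 and 13.8 FPKM. No member is listed at 0, and 3 members were under 1 FPKM in each library. The median change was -0.02, against -0.01 over all listed genes, with 28 changes above 0 and 33 below. The change of 14 members (23.0%) was past 1.5-fold, against a background of 17.2% of all listed genes. Of these members, 8 were higher with sh-CRNDE (8.38% of all genes were) and 6 were lower (8.83% of all genes were). A change past 2-fold was found in 9 members (14.8%), 4 higher and 5 lower, against 6.66% of all genes. All 14 were among the 47 members with a mean of at least 5 FPKM. Of these 47, 29.8% were past 1.5-fold and 19.1% past 2-fold, where 17.1% and 6.89% of all genes of that level were. The mean takes in both libraries, so a gene can pass through the library where it is high. TMED8, at 1.47 FPKM with sh-Control and 11.9 FPKM with sh-CRNDE, passed in this way. The shares at this level are descriptions only. The p24 family, taken here as all TMED symbols with TMED8 included, held 5 of the 9 genes past 2-fold. TMED8 is among the 5, was taken by its symbol only and is not placed in a p24 group. Without the 10 TMED genes, 17.6% of the other 51 members were past 1.5-fold and 7.84% past 2-fold, shares near the background. This split was made after the values were seen, and leaving out the genes with the largest changes lowers the shares by itself. Across the members, which are not independent replicates, the levels in the libraries had a Pearson correlation of 0.899 on the log2(FPKM + 1) scale, and 0.944 without the p24 family. Over all listed genes it was 0.920.

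**Figure D1:**
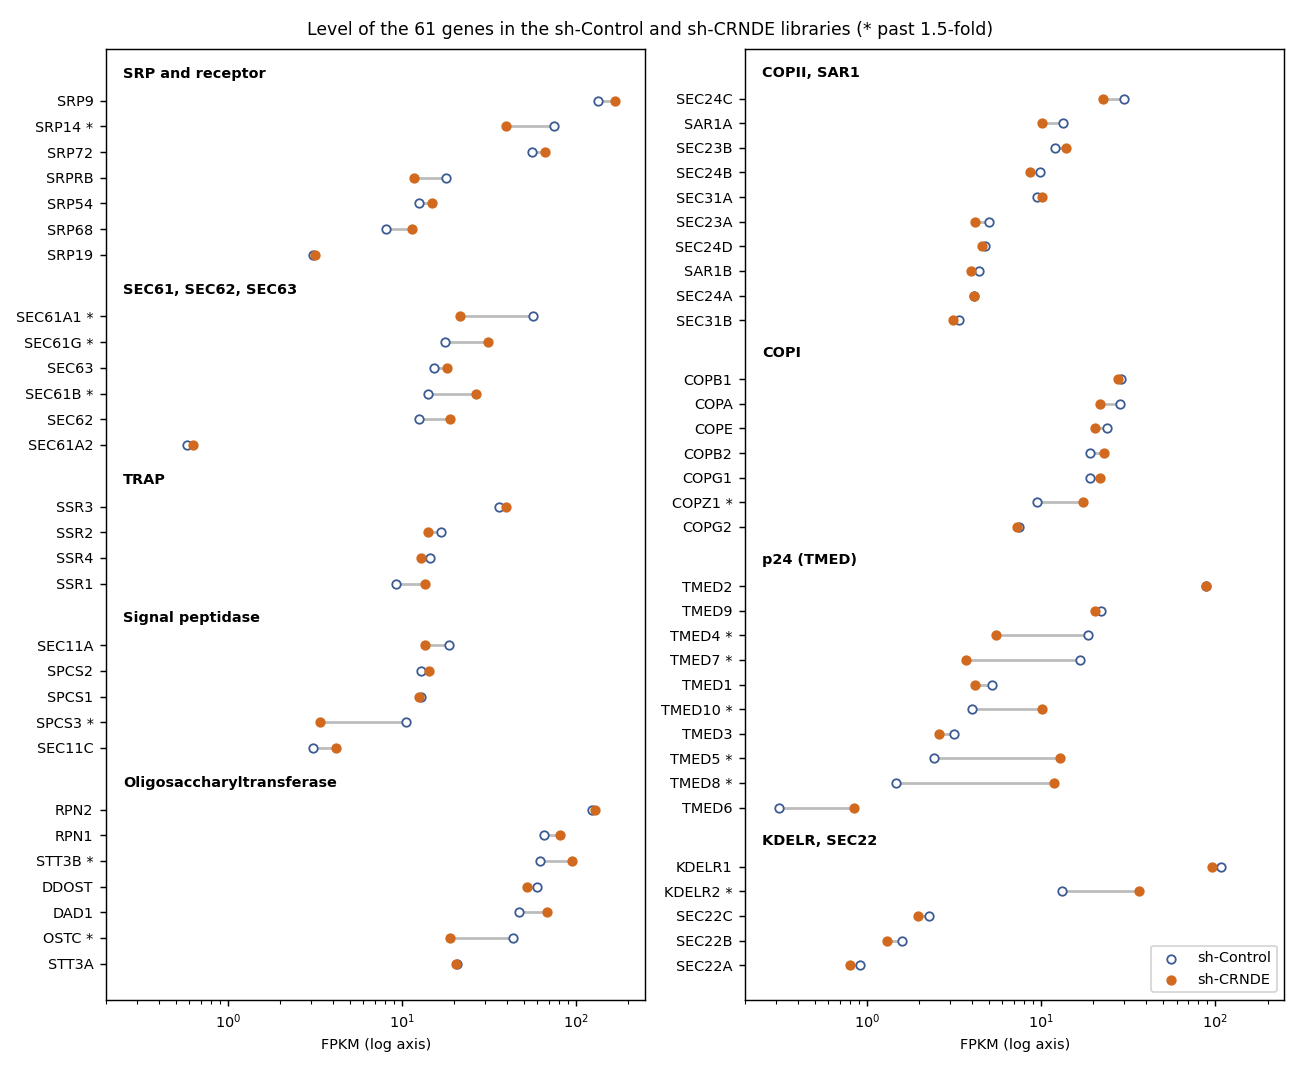
Level of each gene in FPKM, on a log axis, with sh-Control (open blue points) and sh-CRNDE (filled orange points), 1 library each, with a grey line between them and the genes sorted by their sh-Control level within each role. An asterisk marks the genes past 1.5-fold. Most points lie close together, while those of TMED8, TMED5, TMED7 and TMED4 are the furthest apart, followed by SPCS3, KDELR2 and TMED6. Of these, TMED6 has no asterisk, since the added 1 shrinks its change.

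The SRP is made of an RNA and proteins that bind it. SRP54, which binds the signal peptide, was at 12.6 FPKM with sh-Control and 14.9 FPKM with sh-CRNDE. SRP68 and SRP72, which bind the RNA as a pair, were at 8.10 and 11.4 FPKM and at 56.0 and 66.1 FPKM, and SRP19, which helps to assemble the particle, was at 3.08 and 3.15 FPKM. None of the 4 was past the threshold, against 17.2% of all listed genes, the largest change being 0.45 in SRP68. SRP9 and SRP14 form the other pair, which slows translation until the ribosome has docked. SRP9 (0.33) was at 133 FPKM with sh-Control and 167 FPKM with sh-CRNDE. SRP14 fell from 74.7 to 39.8 FPKM, a change of -0.89, and was the only member of its role past the threshold. The pair summed to 208 FPKM with sh-Control and 207 FPKM with sh-CRNDE, and the SRP9 level over the SRP14 level was 1.78 and 4.21. A copy of SRP9 on another locus, SRP9P1, has 14.8% of the 50-base stretches of the SRP9 transcript and is listed at 0 under sh-Control and has 3.20 FPKM with sh-CRNDE. SRPRB, the membrane-bound part of the SRP receptor, was at 17.9 and 11.7 FPKM, a change of -0.57 that lies just inside the threshold and is past it under 5 of the 6 other settings tried. The median change of the 7 genes was 0.23.

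The SEC61 channel is a trimer of a pore-forming α subunit and the small β and γ subunits. The α subunit gene SEC61A1 (ENSG00000058262, chromosome 3, 128051641 to 128071705, plus strand, GRCh38) fell from 56.7 FPKM with sh-Control to 21.6 FPKM with sh-CRNDE, a change of -1.35. The genes of both small subunits went the other way. SEC61B (chromosome 9, 99222064 to 99230615, plus strand) rose from 14.2 to 26.6 FPKM, a change of 0.86. SEC61G (chromosome 7, 54752250 to 54759974, minus strand) rose from 17.7 to 31.3 FPKM, a change of 0.79. In sh-Control, SEC61A1 was thus the highest of the 3, at 4.0 times the level of SEC61B and 3.20 times that of SEC61G. In sh-CRNDE it was the lowest, at 0.811 and 0.690 times. The ratio of SEC61B to SEC61G was 0.801 and 0.851. Of the summed FPKM of the trimer, a set formed, like the SRP9 and SRP14 pair, after the values were seen, which was 88.6 and 79.4, SEC61A1 took 64.0% with sh-Control and 27.2% with sh-CRNDE. SEC61A2, the second α subunit gene, was at 0.585 and 0.628 FPKM and made up 1.02% and 2.83% of the α subunit sum. SEC62 and SEC63, which help the channel to take up finished proteins, were at 12.5 and 18.8 FPKM (0.55) and at 15.3 and 18.2 FPKM (0.23). SEC61A1 overlaps RUVBL1 on the opposite strand, which was at 14.5 and 18.8 FPKM, and the library kit does not mark the strand.

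The sequence before each start site is shown for the 3 subunit genes because their levels moved in opposite directions. The stretches are the 250 bases before the RefSeq start site (GRCh38.p14), read along the gene, with CCAAT on either strand in capitals (on the other strand it reads ATTGG). They lie at chr3:128051391-128051640 for SEC61A1, chr9:99222032-99222281 for SEC61B and chr7:54759212-54759461 for SEC61G.
SEC61A1: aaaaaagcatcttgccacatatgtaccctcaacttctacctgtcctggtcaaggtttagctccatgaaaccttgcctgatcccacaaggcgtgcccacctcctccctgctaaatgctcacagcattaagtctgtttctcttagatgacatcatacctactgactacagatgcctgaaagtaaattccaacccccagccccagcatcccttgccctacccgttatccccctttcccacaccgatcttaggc
SEC61B: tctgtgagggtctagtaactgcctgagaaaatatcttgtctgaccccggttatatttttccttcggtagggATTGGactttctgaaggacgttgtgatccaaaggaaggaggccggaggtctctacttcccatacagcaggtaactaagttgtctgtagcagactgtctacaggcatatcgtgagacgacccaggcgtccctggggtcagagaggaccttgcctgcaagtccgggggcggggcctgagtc
SEC61G: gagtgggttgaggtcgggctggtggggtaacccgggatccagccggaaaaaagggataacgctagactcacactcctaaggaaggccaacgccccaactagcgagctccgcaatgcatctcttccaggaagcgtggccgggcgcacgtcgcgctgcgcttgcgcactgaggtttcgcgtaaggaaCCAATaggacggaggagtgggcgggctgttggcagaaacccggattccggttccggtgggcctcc
The 5 letters start 179 bases before the start site in SEC61B and 65 bases before it in SEC61G, and do not occur in the SEC61A1 stretch. They are common, in 34.6% of 35116 promoter windows of 300 bases, which reach 50 bases past the start, and in 22 of the 54 members with such a window (40.7%). The 35116 windows were not limited to the listed genes. A match is a description of the letters only.

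The translocon-associated protein (TRAP) complex sits beside the channel and helps some proteins to enter. None of its 4 genes was past the threshold, against 17.2% of all listed genes. SSR3 was the highest, at 36.3 FPKM with sh-Control and 39.5 FPKM with sh-CRNDE, and SSR2 (16.73 and 14.05 FPKM), SSR4 (14.5 and 12.9 FPKM) and SSR1 (9.27 and 13.6 FPKM, 0.50) had changes between -0.24 and 0.50. In the signal peptidase complex, 1 of 5 genes was past the threshold. SPCS3 (chromosome 4, 176319966 to 176332245, plus strand), whose protein is needed for the cleavage, fell from 10.6 to 3.37 FPKM, a change of -1.41. Its partners SPCS1 (12.8 and 12.5 FPKM) and SPCS2 (12.9 and 14.2 FPKM) were at a like level in both libraries. The ratio of SPCS3 to SPCS2, a pair picked after the values were seen, was 0.825 with sh-Control and 0.237 with sh-CRNDE. The catalytic subunit genes SEC11A and SEC11C were at 18.5 and 13.6 FPKM and at 3.08 and 4.17 FPKM, and SEC11A made up 85.7% and 76.5% of their sum. Of the 50-base stretches of the SPCS1 transcript, 71.1% also occur in transcripts of NEK4, so the SPCS1 values may hold reads of that gene. SPCS2 shares 19.2% of its stretches with SPCS2P4, which was at 1.71 FPKM with sh-Control and 0 with sh-CRNDE.

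The oligosaccharyltransferase exists in a form built around STT3A, which works at the channel and holds OSTC, and a form built around STT3B, which can act after the protein has entered. STT3B rose from 62.1 to 94.6 FPKM, a change of 0.60 that lies just past the threshold and falls inside it after quantile normalization (0.56) and after subtraction of the median change of genes of like GC content (0.43). STT3A was at 20.8 FPKM with sh-Control and 20.4 FPKM with sh-CRNDE. The share of STT3B in their sum was 74.9% with sh-Control and 82.2% with sh-CRNDE. OSTC (chromosome 4, 108650585 to 108667820, plus strand) fell from 43.7 to 18.9 FPKM, a change of -1.17. Of the 7 genes of the role, 2 were past the threshold (28.6%), against 17.2% of all listed genes, and the shared subunits were not. RPN2, the highest of the role, was at 124 and 128 FPKM, RPN1 at 65.3 and 80.5 FPKM, DDOST at 60.0 and 52.3 FPKM, and DAD1 (0.54) at 46.8 and 68.5 FPKM. The 7 genes summed to 422 FPKM with sh-Control and 463 FPKM with sh-CRNDE.

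**Figure D2:**
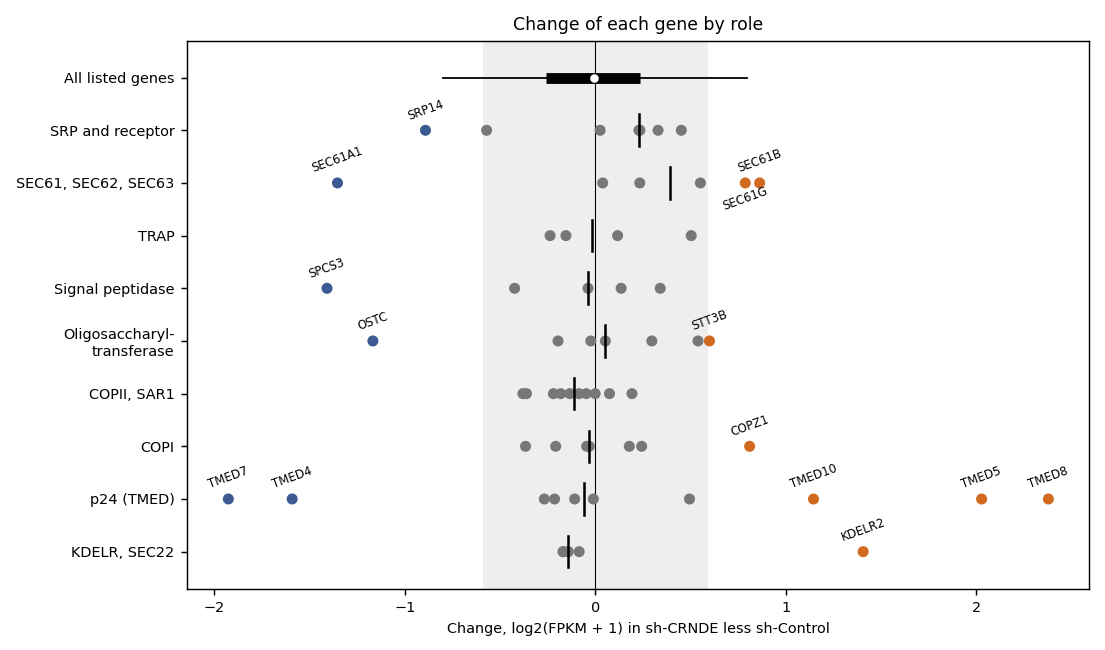
Change of each gene, log2(FPKM + 1) in sh-CRNDE less sh-Control, by role, with the role's median as a black line and the genes past 1.5-fold named. Grey shading covers changes under 1.5-fold, and the top row gives all 11619 genes as the median (white point), the 25th to 75th percentile (thick bar, -0.26 to 0.23) and the 5th to 95th percentile (thin line, -0.80 to 0.80). All COPII genes lie inside the shading, while the TMED genes, with TMED8 at the upper end, run from -1.93 to 2.38.

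None of the 10 genes of the COPII coat and its SAR1 GTPases was past the threshold, against 17.2% of all listed genes. Their changes ran from -0.38 to 0.19, with a median of -0.11, and 8 of the 10 were below 0. The summed FPKM was 96.2 with sh-Control and 85.3 with sh-CRNDE. SEC24C, a cargo-binding subunit and the highest of the role, was at 29.8 FPKM with sh-Control and 22.7 FPKM with sh-CRNDE (-0.38), and SEC24B (9.89 and 8.60 FPKM), SEC24D (4.76 and 4.57 FPKM) and SEC24A (4.14 FPKM in both) followed in the same order in each library. SEC24C took 61.3% of the SEC24 sum with sh-Control and 56.7% with sh-CRNDE. SEC23B, which gave the highest change of the role (0.19), was at 11.96 and 13.8 FPKM, and its paralog SEC23A at 5.01 and 4.16 FPKM, so that SEC23B was 70.5% and 76.9% of the SEC23 sum. The GTPases SAR1A and SAR1B, which start the coat, were at 13.4 and 10.2 FPKM (-0.36) and at 4.42 and 3.94 FPKM. The outer coat genes SEC31A and SEC31B were at 9.51 and 10.1 FPKM and at 3.37 and 3.12 FPKM. In each of these paralog sets the same gene was the highest in both libraries. SAR1B and SEC24A overlap on opposite strands of chromosome 5, and 5.39% of the 50-base stretches of SEC24A also occur in SAR1B transcripts.

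In the COPI coat, 1 of 7 genes was past the threshold, against 17.2% of all listed genes. COPZ1, which encodes the small ζ subunit (chromosome 12, 54301202 to 54351846, plus strand), rose from 9.49 FPKM with sh-Control to 17.4 FPKM with sh-CRNDE, a change of 0.81. The genes of the larger subunits, COPB1 (28.8 and 27.8 FPKM), COPA (28.3 and 21.7 FPKM, -0.37), COPE (23.8 and 20.5 FPKM), COPB2 (19.2 and 22.9 FPKM, 0.24) and COPG1 (19.1 and 21.8 FPKM), were not. COPG2, the paralog of COPG1, was at 7.49 and 7.31 FPKM, and COPG1 made up 71.9% and 74.9% of their sum. The ratio of COPZ1 to COPE, a pair picked after the values were seen, was 0.398 with sh-Control and 0.848 with sh-CRNDE. COPE itself had a change of -0.21, which adds to the difference of these ratios.

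The p24 proteins cycle between ER and Golgi as mixed complexes of the α, β, γ and δ groups, and carry GPI-anchored proteins among other cargo. Of the 10 TMED genes, 5 were past 2-fold, 3 higher and 2 lower, and the other 5 were inside 1.5-fold. Past 2-fold were 6.66% of all listed genes. TMED8 and TMED5 had the highest changes of all 61 members. TMED8, whose protein has the GOLD domain of the family (chromosome 14, 77335029 to 77377094, minus strand), rose from 1.47 to 11.9 FPKM, a change of 2.38. TMED8 was taken by its symbol and was not placed in any of these groups. TMED5, of the γ group (chromosome 1, 93149742 to 93180516, minus strand), rose from 2.41 to 12.9 FPKM, a change of 2.03. TMED10, the δ group gene (chromosome 14, 75131469 to 75176612, minus strand), rose from 4.02 to 10.1 FPKM, a change of 1.15. Both of the lowest changes among the members were also found in this family. TMED7, of the γ group (chromosome 5, 115613210 to 115632992, minus strand), fell from 16.8 to 3.69 FPKM, a change of -1.93. TMED4, of the α group (chromosome 7, 44577894 to 44582287, minus strand), fell from 18.6 to 5.50 FPKM, a change of -1.59. Of all listed genes, 0.87% had a lower change than TMED7 and 99.4% a lower change than TMED8.

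The family as a whole summed to 163 FPKM with sh-Control and 160.5 FPKM with sh-CRNDE. TMED2, the β group gene, was the highest member in both, at 89.1 and 88.5 FPKM, 54.6% and 55.1% of the family sum. TMED9, the other α group gene, was at 21.99 and 20.3 FPKM. The low γ group genes TMED1 (5.24 and 4.19 FPKM), TMED3 (3.18 and 2.60 FPKM) and TMED6 (0.311 and 0.847 FPKM) were not past the threshold. TMED6 is past it under a smaller pseudocount (1.42 with 0.01), as the lowest gene of the family. In the γ group, a set put together after the values were seen, TMED7 and TMED5 changed places. TMED7 took 60.1% of the group sum with sh-Control and 15.2% with sh-CRNDE, TMED5 took 8.63% and 53.3%, and the sum itself was 28.0 and 24.2 FPKM. The ratio of TMED5 to TMED7 was 0.143 with sh-Control and 3.50 with sh-CRNDE. In the α group, also formed after the values were seen, TMED4 took 45.8% and 21.3% of a sum of 40.6 and 25.8 FPKM. Across the 10 genes the Spearman correlation of the levels between the libraries was 0.491, against 0.916 over the other 51 members and 0.909 over all listed genes. These values are descriptions, and the split of the members was made after the values were seen.

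Reads of some of these genes can also come from neighbours. TMED7-TICAM2, a readthrough gene on the same strand, holds 19.7% of the 50-base stretches of TMED7 and was itself at 2.66 FPKM with sh-Control and 0.308 FPKM with sh-CRNDE. CCDC18, on the strand opposite TMED5, has 5.45% of the stretches of TMED5 and was at 3.97 and 6.53 FPKM. Of the stretches of TMED1, 54.7% occur in transcripts of DNM2, which was at 12.5 and 11.5 FPKM. How the authors' counting split such reads is not stated in the sources used here, and their part in the changes was not tested.

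The 250 bases before the RefSeq start site (GRCh38.p14) of TMED5 and TMED7, which changed places, are shown in the same way, with CCAAT or its complement in capitals. They lie at chr1:93180414-93180663 and chr5:115626037-115626286, both on the minus strand.
TMED5: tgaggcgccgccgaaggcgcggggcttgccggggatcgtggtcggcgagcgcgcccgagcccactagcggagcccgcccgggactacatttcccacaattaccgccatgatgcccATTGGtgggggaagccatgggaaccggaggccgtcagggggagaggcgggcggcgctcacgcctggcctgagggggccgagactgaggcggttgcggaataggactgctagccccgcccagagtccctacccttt
TMED7: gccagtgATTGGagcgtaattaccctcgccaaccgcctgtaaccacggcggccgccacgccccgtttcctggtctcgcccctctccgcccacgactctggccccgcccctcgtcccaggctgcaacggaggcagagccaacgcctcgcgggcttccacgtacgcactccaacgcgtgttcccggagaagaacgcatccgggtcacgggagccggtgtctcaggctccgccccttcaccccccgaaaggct
Each holds the letters once on the other strand, 135 bases before the start in TMED5 and 243 bases before it in TMED7. In SEC61B, SEC61G, TMED5 and TMED7 the RefSeq start lies inside the GENCODE gene, so these stretches overlap annotated transcripts. The GC content of the TMED5 and TMED7 stretches is 70.0% and 68.4%.

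The KDEL receptors bring ER chaperones back from the Golgi. KDELR2 (chromosome 7, 6445953 to 6484190, minus strand) rose from 13.2 FPKM with sh-Control to 36.7 FPKM with sh-CRNDE, a change of 1.41. KDELR1, the higher of the pair, was at 108 and 96.3 FPKM (-0.17) and took 89.1% of their sum with sh-Control and 72.4% with sh-CRNDE. KDELR2 shares 5.08% of its 50-base stretches with DAGLB, which was at 4.57 and 3.60 FPKM. The SEC22 genes were low. SEC22C was at 2.28 and 1.97 FPKM, and SEC22A at 0.910 and 0.801 FPKM. SEC22B, a SNARE of the transport between ER and Golgi, was at 1.59 and 1.31 FPKM. None of these SEC22 genes was past the threshold, against 17.2% of all listed genes. The added 1 shrinks changes at such low levels. With a pseudocount of 0.01 the changes were -0.21 for SEC22C, -0.28 for SEC22B and -0.18 for SEC22A, still inside the threshold.

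In several complexes the genes past the threshold stood beside partners that were not. Outside the p24 family 17.6% of the members were past it, near the 17.2% of all listed genes. Apart from the p24 family, roles with a lower gene held it as the only lower one (SRP14, SEC61A1, SPCS3 and OSTC), and direction and chromosome were set side by side. Of the 3 on chromosome 7, SEC61G and KDELR2 rose and TMED4 fell. On chromosome 3, STT3B rose and SEC61A1 fell. Both genes on chromosome 14, TMED8 and TMED10, rose, and both on chromosome 4, SPCS3 and OSTC, fell. The median GC content of the canonical transcript was 41.8% in the 8 members that were higher, 41.2% in the 6 that were lower and 44.3% in the other 47. Over all listed genes it was 44.7% in the higher and 53.6% in the lower ones. The median number of exons was 5 in both directions and 8 in the members not past the threshold, and over all genes it was 5, 5 and 9. Across the 61 members, the Spearman correlation of change with GC content was -0.21, and across the 11508 annotated genes -0.39.

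Several genes of this pathway carry promoter elements for factors of the unfolded protein response, the program that raises ER capacity when unfolded proteins collect there. TGACGTGG, found in elements bound by ATF6 and XBP1, was searched on both strands of the 300-base promoter windows, and 54 of the 61 members have a window. It occurs in 7 of the 54 (13.0%) and in 256 of 35116 windows overall (0.729%). The windows overall were not limited to the listed genes, so these shares do not come from like sets. The median GC content was 64.5% in the member windows and 58.7% in all windows. None of the 7 genes was past the threshold, against 17.2% of all listed genes, and 7 genes are few for such a comparison. The cAMP response element TGACGTCA, which shares its first 6 letters with TGACGTGG, occurs in 0 of the 54 and in 1.85% of all windows. CCAAT followed after 9 bases by CCACG, the ER stress response element, occurs in 0 of the 54 and in 0.0769% of all windows. The sites of TGACGTGG are shown with 10 bases on each side, since these are the members that share it, with the element in capitals (CCACGTCA where it lies on the other strand).
COPA (chr1:160343228-160343255): agagggtcgcTGACGTGGaggcgtccga
COPB1 (chr11:14499842-14499869): ccacccccttCCACGTCAgccaaggact
COPB2 upstream site (chr3:139389826-139389853): ctcagcggcaCCACGTCAcggcccttag
COPB2 downstream site (chr3:139389633-139389660): cccggaagttCCACGTCAgtcagtctga
SEC23A (chr14:39103222-39103249): cccctcctctTGACGTGGcagaggcggc
SEC24A (chr5:134648596-134648623): tgagagtcggTGACGTGGcggcgaggcc
SEC62 (chr3:169966780-169966807): cctcctcgctCCACGTCAgagggaaccg
SRP19 (chr5:112861165-112861192): agtcttcatgCCACGTCAgagactagag
The changes of these genes were -0.37 for COPA, -0.04 for COPB1, 0.24 for COPB2, -0.22 for SEC23A, 0.00 for SEC24A, 0.55 for SEC62 and 0.03 for SRP19. The site in COPA and the downstream site in COPB2 lie within 50 bases after the start, that in SEC23A reaches across it, and the others lie before it. No match in a window says only that these letters are not there.

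Genes of the same steps that the symbols did not take were looked at by lists set from textbook roles. Leaving out the SRP RNA genes, which are given at the end, 57 such genes are listed, of which 4 were higher and 5 lower, 15.8%, against 17.2% of all listed genes. At the SEC61 channel, TRAM1, a membrane protein beside it, fell from 36.0 to 19.8 FPKM (-0.83), while TRAM2 (5.73 and 4.12 FPKM) and SRPRA, which pairs with SRPRB in the SRP receptor (20.7 and 26.1 FPKM), were not past the threshold. MAGT1, which belongs to the STT3B form of the oligosaccharyltransferase, fell from 12.2 to 5.75 FPKM (-0.97), and the other 4 listed partners of the enzyme were not past it. Of 14 partners of COPII and the ER exit, 2 were past the threshold. MCFD2 and SURF4, which both take part in the export of secreted proteins, rose from 3.53 to 23.0 FPKM (2.41) and from 17.9 to 72.1 FPKM (1.95). LMAN1, the receptor that MCFD2 binds, was at 25.1 and 25.3 FPKM, and the coat partner SEC13 at 13.4 and 12.03 FPKM. Of 9 partners of COPI, ARF4, a GTPase of the ARF family, rose from 24.2 to 44.4 FPKM (0.85), and ARCN1, the δ subunit of the coat, was at 21.9 and 24.6 FPKM. The SRP also holds an RNA. Of the SRP RNA names searched, the tables list 2 genes called Metazoa_SRP, at 2.87 and 254 FPKM (ENSG00000274012, 6.04) and at 0.543 and 0.951 FPKM (ENSG00000278771, 0.34), the sh-Control value first. The genome holds many near-identical copies of this RNA, so these values are uncertain.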

How the data were processed

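Libraries were made with the TruSeq RNA Sample Prep Kit v2 and sequenced on an Illumina MiSeq. The submitters' processing notes name fastp 0.20.0, HISAT2 2.0.4, StringTie 1.2.3 and GRCh38. The authors deposited FPKM per gene, and every listed gene exceeds 0.5 FPKM in 1 or both libraries. From these values, changes on the log2(FPKM + 1) scale were computed for all 11619 genes without further scaling, and called at 1.5-fold. The members, role lists and rules were chosen with earlier results of these data known. Named are the members past the threshold, the highest, lowest and most abundant of each role, partners past it, and CRNDE. Others were named after their values were seen. Positions, exons, GC content and shared 50-base stretches come from GENCODE release 44 (canonical transcript), which matched 11508 identifiers and all 61 members. Promoter windows come from RefSeq (GRCh38.p14). Alternatives were pseudocounts of 0.1 and 0.01, median centring, quantile normalization, TPM without mitochondrial and small RNAs, GC correction in 20 bins, 2-fold, and low-value filters. The computation was tested on simulated data. Python 3.11.15, numpy 2.4.6, pandas 2.3.3, scipy 1.17.1 and matplotlib 3.10.9 were used.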

Additional observations from a re-analysis of the deposited data

How the results depend on the processing

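Of the 14 members past 1.5-fold, 13 were past it under each of the 6 other pseudocounts and scalings, and none changed direction. This says little for several settings. A smaller pseudocount enlarges every change in size, so it could not bring a gene back inside the threshold. Median centring moved each change by only 0.006. All settings use the same 2 libraries and do not stand in for replicates. STT3B was inside it after quantile normalization and after GC correction, and SRPRB, TMED6 and SEC62 were past it under some settings. At 2-fold, 4 members were higher. The count for SRP and its receptor was 2 under both smaller pseudocounts, quantile normalization, rescaling to TPM and GC correction, with SRPRB added, and that of the oligosaccharyltransferase was 1 after quantile normalization (median change -0.054) and GC correction. The SRP RNA count was 2 under both smaller pseudocounts and GC correction, and rescaling to TPM leaves these RNAs out. GC correction moved the median change by over 0.1 for SRP (0.064), SEC61, SEC62 and SEC63 (0.20), signal peptidase (-0.16), COPII (-0.22) and COPI (0.074). Over all genes, the counts higher and lower were 1580 and 1721 with a pseudocount of 0.1, 1653 and 1828 with 0.01, 1466 and 1667 after rescaling to TPM, where the added 1 weighs less, 399 and 375 at 2-fold, 585 and 654 for genes at 1 FPKM or more in both, and 429 and 444 with a mean of at least 5 FPKM, where fewer genes were tested. No paired analysis was possible because each group has 1 library. The unknown depth limits what can be said of the members under 1 FPKM.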

Other observations

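Other steps of entry into the ER and of membrane fusion were also looked at. The ER membrane complex inserts proteins that the SEC61 channel does not take well. None of its 9 listed genes was past 1.5-fold, as 17.2% of all listed genes were, with changes from -0.18 to 0.40. EMC7 was the highest, at 30.6 FPKM with sh-Control and 34.9 FPKM with sh-CRNDE. Among 7 genes for the insertion of tail-anchored proteins, UBL4A rose from 9.01 to 25.7 FPKM (1.41). Its partners BAG6 (45.0 and 30.6 FPKM, -0.54), SGTA (18.2 and 17.2 FPKM) and GET4 (2.91 and 2.43 FPKM) were not past the threshold.

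Among 10 SNAREs and tethers of the early pathway, 3 were lower and none was higher, where 8.83% of all listed genes were lower and 8.38% higher. YKT6, a SNARE used at several steps, fell from 29.0 to 9.01 FPKM (-1.58). GOSR1 fell from 3.46 to 1.70 FPKM (-0.72) and BET1 from 2.41 to 0.823 FPKM (-0.90), both SNAREs of the transport between ER and Golgi. STX5 (7.72 and 6.72 FPKM), which pairs with them, and the tether USO1 (16.1 and 21.4 FPKM) were not past it.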
